A study of Mus musculus with 6 samples.

Results

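The genes described here mark the cells that blood carries in the largest numbers: red cells and their precursors, and platelets with the megakaryocytes that shed them. They were chosen by name, as 9 listed genes, and 8 of them had a row among the 24062 gene symbols of the series. The remaining red cell gene was not analysed here. The red cell genes are Hba-a1 and Hba-a2, the paired genes for the alpha chain of adult hemoglobin, Alas2, the erythroid enzyme that starts heme synthesis, and Slc4a1, the band 3 anion exchanger of the red cell membrane. The platelet genes are Ppbp, which encodes the chemokine precursor CXCL7, Pf4, which encodes platelet factor 4 (CXCL4), and Gp9 and Gp1bb, subunits of the receptor complex by which platelets bind von Willebrand factor.

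RNA was sequenced from the auditory nerve of young adult mice, microdissected from the cochlea, with the nerves of both cochleae of 1 mouse in each library. There were 3 wildtype mice, of strain C57BL/6 (C57BL/6J in the design text), and 3 Vcan knockout mice, whose strain label is also C57BL/6. Vcan encodes versican, a chondroitin sulfate proteoglycan of the extracellular matrix. The labels give no treatment, exact age, allele or Cre line. The comparison asked how transcripts of the nerve differ where versican is deficient.

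Red cells lose their nucleus and platelets never have one, so the transcripts of both lineages are made mainly in the precursors, which live in bone marrow, and some persist in the circulating cells. The auditory nerve runs through the bony core of the cochlea, whose marrow spaces and vessels lie beside it, and a dissected nerve can carry both blood and marrow. Ppbp and Pf4 proteins are stored in the alpha granules of platelets and released when these are activated. In bulk tissue, fewer cells of a type and less RNA per cell cannot be told apart.

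The libraries held 74530860 to 92513887 gene counts. Vcan itself, on chromosome 13 from 89655309 to 89743027 (GRCm38), was at 8.36, 9.61 and 7.32 CPM (counts scaled to a common library size with TMM factors) in wildtype and at 5.44, 2.70 and 2.88 in knockout nerve. The 3 knockout values lay below the 3 wildtype values, with a log2 fold change of −1.20 (SE 0.32) that did not pass in edgeR (adjusted p = 0.558) and passed in DESeq2 (adjusted p = 0.0342). The neuronal gene Snap25 (1533 to 3501 CPM) was high in all 6 libraries, as fits the labelled tissue. Wildtype replicate 3 had its lowest level. It also correlated with the other libraries at 0.943 to 0.953 in log2 CPM, and it touches several results below.

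Ppbp and Pf4 are neighbours in a cluster of CXC chemokine genes on chromosome 5. Ppbp spans 90768518 to 90770063 and Pf4 spans 90772435 to 90773383 in GRCm38, so 2372 bases lie between them. Gp9 lies on chromosome 6. For these 3 platelet genes the 250 bases before the start that the RefSeq promoter table uses are shown because the levels of the 3 transcripts are compared library by library below (RefSeq, GRCm38.p6, plus strand, at chr5:90768268-90768517, chr5:90772185-90772434 and chr6:87777820-87778069). The start used for Gp9 lies inside the span listed for that gene, 87776131 to 87779786, so its window is not upstream of the whole gene. Capitals mark matches, on either strand, to the GATA motif and the ETS motif. The GATA motif was searched as AGATAA, in the form TGATAA, in the form AGATAG and in the form TGATAG. The ETS motif was searched as CCGGAA and in the form AGGAAG. Both motif families are known from genes of megakaryocytes.
Ppbp: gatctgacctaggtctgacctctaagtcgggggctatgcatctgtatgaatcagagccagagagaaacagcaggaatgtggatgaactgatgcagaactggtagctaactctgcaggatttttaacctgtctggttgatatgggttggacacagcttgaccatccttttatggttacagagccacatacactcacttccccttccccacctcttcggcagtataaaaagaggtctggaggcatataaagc
Pf4: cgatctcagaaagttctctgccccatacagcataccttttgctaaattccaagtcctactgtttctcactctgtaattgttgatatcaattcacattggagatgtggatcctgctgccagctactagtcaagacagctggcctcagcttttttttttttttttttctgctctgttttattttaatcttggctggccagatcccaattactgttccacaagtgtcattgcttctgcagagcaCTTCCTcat
Gp9: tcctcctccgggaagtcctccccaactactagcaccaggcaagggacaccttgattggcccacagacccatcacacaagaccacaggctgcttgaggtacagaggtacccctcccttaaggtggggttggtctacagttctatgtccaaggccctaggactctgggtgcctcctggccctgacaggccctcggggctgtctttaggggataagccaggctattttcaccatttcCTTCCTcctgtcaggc
Pf4 held 1 ETS match, at −9 to −4 from the start used, and Gp9 held 1, at −16 to −11 from the start used. Ppbp held no match to either set of letters, which says only that these letters are not in this window. Among 32817 upstream windows of the same length, 38.2% held an ETS match and 26.6% a GATA match, so a match is common. Gp1bb, on chromosome 16, held a GATA match at −22 to −17 and no ETS match. No 2 matches overlapped.

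The platelet transcripts were more abundant in knockout nerve, with Ppbp the furthest apart. Each of the 4 genes was higher in every knockout library than in any wildtype library, and the fold difference ran from 1.72 for Pf4 to 10.6 for Ppbp. None passed correction over the 16722 genes tested with edgeR, at a threshold of 0.05 on the adjusted p, by which 0.138% of all genes were called. At an unadjusted p under 0.05 there were 2 platelet genes, Ppbp and Gp9, both higher, where 5.2% of all genes were called in either direction and 2.56% higher. Over all genes tested, 48.9% had a log2 fold change above 0 and 2.04% were at least 2-fold higher in knockout nerve, as Ppbp, Gp9 and Gp1bb were. DESeq2 called 1 of the 4, Ppbp, against 0.653% of all genes called higher. Groups that do not overlap were found for 10.3% of all genes, with the knockout libraries higher for 5.42%. These 4 genes were chosen with earlier results of these data known, so their shared direction is a description.

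Ppbp was at 1.24, 1.67 and 0.281 CPM in the wildtype libraries and at 18.2, 5.19 and 10.5 CPM in the knockout libraries (replicates 1, 2 and 3 in each). The raw counts were 103, 150 and 24 against 1384, 479 and 901. The lowest knockout library thus stood above the highest wildtype library, while the values within a genotype differed 5.95-fold in wildtype and 3.52-fold in knockout nerve. Group means were 1.06 ± 0.710 and 11.3 ± 6.57 CPM (SD, n = 3). The log2 fold change was 3.41 (SE 0.75; edgeR unadjusted p = 0.00286, adjusted p = 0.328), and 144 genes had a smaller unadjusted p. DESeq2 gave 3.42 (SE 0.62, adjusted p = 1.19e-05). In the authors' deposited table Ppbp has an adjusted p of 0.000107.

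Pf4 was at 3.42, 4.80 and 1.80 CPM in wildtype and at 6.10, 5.76 and 5.38 CPM in knockout nerve. The knockout libraries were close to each other and the wildtype libraries spread over a 2.66-fold range. Pf4 had a log2 fold change of 0.78 (SE 0.36; edgeR adjusted p = 1.00, DESeq2 adjusted p = 0.659), and without wildtype replicate 3 it was 0.48.

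Gp9, the glycoprotein IX subunit, was at 0.192, 0.178 and 0.140 CPM in wildtype and at 1.40, 0.249 and 0.777 CPM in knockout nerve. These are low levels, from 12 to 16 counts in a wildtype library and 106, 23 and 67 counts in the knockout libraries, and knockout replicate 2 stood only just above wildtype. Gp9 had a log2 fold change of 2.23 (SE 0.67; edgeR adjusted p = 0.637, DESeq2 adjusted p = 0.0998), and without knockout replicate 1 it was 1.58.

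Gp1bb, the beta subunit of glycoprotein Ib, was at 0.324, 1.20 and 0.784 CPM in wildtype and at 1.58, 1.51 and 2.05 CPM in knockout nerve. Its log2 fold change was 1.15 (SE 0.50; edgeR adjusted p = 0.986, DESeq2 adjusted p = 0.537), and without wildtype replicates 1, 2 and 3 in turn it was 0.79, 1.63 and 1.16. These counts are uncertain, because Gp1bb (chromosome 16, 18620319 to 18622403) overlaps the neuronal septin gene Sept5 over 593 bases in RefSeq. The overlap is wider in GENCODE vM21. There 91.0% of the 50-base stretches in the longest Gp1bb transcript also occur in transcripts of Sept5. Sept5 averaged 65.3 ± 17.9 CPM over the wildtype and 70.9 ± 11.2 CPM over the knockout libraries (SD, n = 3), far above Gp1bb. The stretches of Ppbp, Pf4 and Gp9 occur in no other gene.

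**Figure D1:**
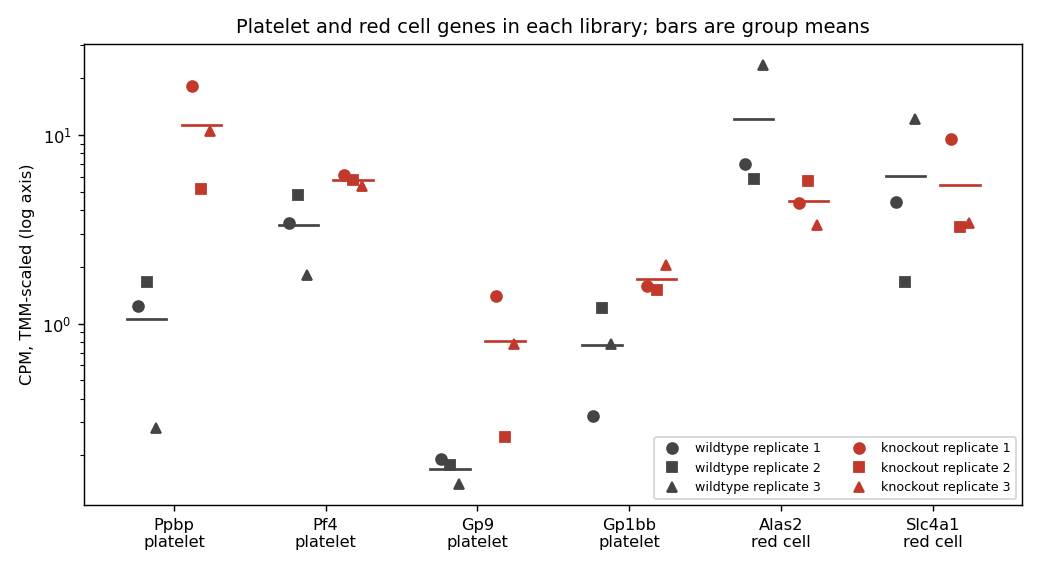
TMM-scaled CPM (log axis) of the 4 platelet genes and the 2 red cell genes that could be measured, for each of the 3 wildtype (grey) and 3 knockout (red) libraries, with a bar at each group mean. All knockout points of Ppbp, from 5.19 to 18.2 CPM, lie above all wildtype points, from 0.281 to 1.67 CPM, while the groups overlap for Slc4a1.

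Set per kilobase of the longest transcript, levels of different genes can be compared roughly. The place of Gp1bb is uncertain, since 91.0% of its stretches also occur in Sept5 and how such reads were counted is not known. By group mean, the order of the platelet genes then differed between the genotypes. In wildtype nerve Pf4 was the most abundant, at 5.68 CPM per kilobase against 0.980 for Ppbp, 0.369 for Gp1bb and 0.193 for Gp9. In knockout nerve Ppbp was at 10.4 and Pf4 at 9.78 CPM per kilobase, which do not differ beyond the spread of Ppbp. Gp9 was at 0.917 and Gp1bb at 0.822. These do not differ beyond the spread of Gp9, which was at 1.40, 0.249 and 0.777 CPM in the knockout libraries.

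Ppbp differed in the same direction as Pf4 and Gp9, and by more than either. The ratio of Ppbp to Pf4 in CPM was 0.361, 0.348 and 0.156 in the wildtype libraries and 2.99, 0.900 and 1.94 in the knockout libraries. The groups did not overlap. On the log2 scale the mean ratio was −1.88 ± 0.67 in wildtype and 0.79 ± 0.88 in knockout nerve (SD, n = 3), a difference of 2.67 (2-sided exact permutation p = 0.1, the smallest that 3 against 3 can give, and 0.15 after Benjamini-Hochberg adjustment over the 3 ratios tested). The ratio of Ppbp to Gp9 was 6.44, 9.38 and 2 in wildtype and 13.1, 20.8 and 13.4 in knockout nerve. The groups again did not overlap, with a log2 difference of 1.66 (exact permutation p = 0.1, adjusted 0.15). Without wildtype replicate 3 the Ppbp to Gp9 difference was 1.01. The ratio of Ppbp to Gp1bb was 3.81, 1.39 and 0.358 in wildtype and 11.5, 3.45 and 5.09 in knockout nerve. Here wildtype replicate 1 lay above knockout replicate 2, and the log2 difference was 2.24 (exact permutation p = 0.2, adjusted 0.2). Without wildtype replicates 1 and 3 in turn it was 3.04 and 1.36. With 3 mice a genotype none of these differences could reach 0.05.

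**Figure D2:**
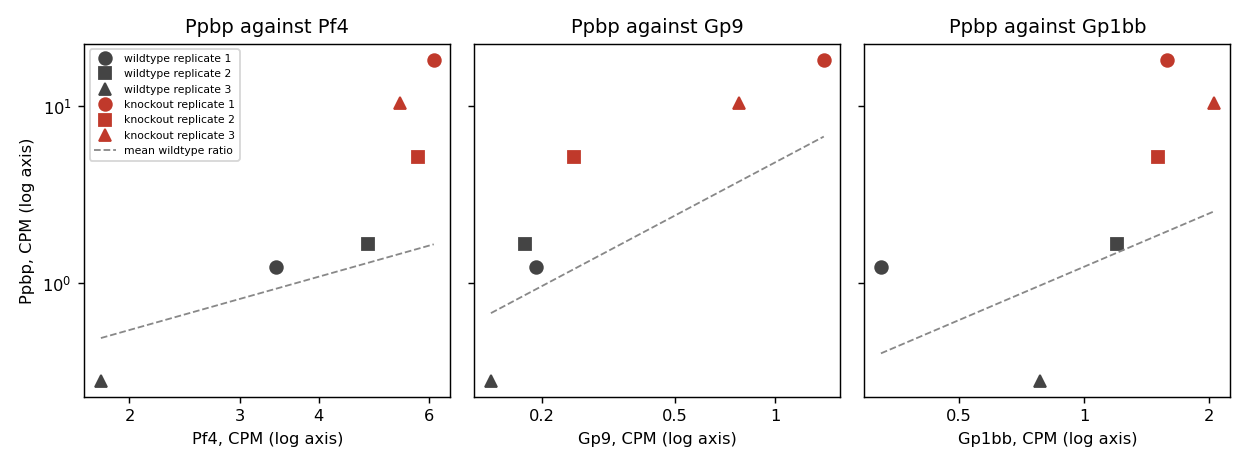
Ppbp (CPM, log axis) against Pf4, Gp9 and Gp1bb (CPM, log axes), with 1 point for each of the 6 libraries, wildtype in grey and knockout in red; the dashed line is the mean wildtype ratio on the log2 scale. The 3 knockout points lie above the line in each panel, and wildtype replicate 3 is the lowest point for Ppbp, at 0.281 CPM.

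Across the 6 libraries, the levels of Ppbp tracked those of Pf4 and Gp9. Pearson's r of log2 CPM was 0.91 with Pf4 (exact permutation p = 0.00417; Spearman's rho 0.94, p = 0.0167) and 0.89 with Gp9 (exact permutation p = 0.00833; rho 0.94, p = 0.0167). Both r values had an adjusted exact p of 0.0139 over the 5 relations computed, and both rho values an adjusted exact p of 0.0278. With Gp1bb r was 0.67 (exact permutation p = 0.140, adjusted 0.175; rho 0.89, p = 0.0333, adjusted 0.0417). Leaving out knockout replicate 1 and wildtype replicate 3, the libraries farthest from the median of Ppbp, gave an r of 0.79 with Pf4, 0.88 with Gp9 and 0.83 with Gp1bb over 4 libraries.

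These values join both genotypes, and 3 libraries are too few for an r within one. The permutations exchanged libraries across genotypes, and each of these genes was higher in every knockout library. The difference between the genotypes thus enters each r and its p, which do not test if the genes vary together among mice of 1 genotype. The largest gap in log2 CPM of Ppbp (2.12) was between wildtype replicate 3 and the other wildtype libraries, larger than the gap between the genotypes (1.63). Once each genotype's mean was subtracted, the deviations of Ppbp correlated at 0.84 with those of Pf4, 0.68 with those of Gp9 and −0.0018 with those of Gp1bb. In wildtype nerve, replicate 3 was the lowest library for Ppbp, Pf4 and Gp9, while replicate 1 was the lowest for Gp1bb. In knockout nerve, replicate 1 was the highest for Ppbp, Pf4 and Gp9, while replicate 3 was the highest for Gp1bb.

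Genes whose pattern over the 6 libraries was most like that of Ppbp were Myo18b, Cxadr, Plekhb2, Itpripl2 and Tufm, at a Pearson r of 0.995 to 0.989 among 13625 genes with a mean of at least 1 CPM. Itga2b, the integrin alpha IIb chain that is a defining marker of platelets, ranked 10 (r = 0.976). Other platelet genes were spread over the whole range: of the 21 ranked, 13 had a positive and 8 a negative r with Ppbp, with a median of 0.29 and the lowest for P2ry1 (r = −0.92). The genes most like Pf4 were Nrgn, Rhov, Frmd5, Gpr137b and Ica1l (r from 0.994 to 0.983). With Pf4, 12 of the 21 platelet genes had a positive and 9 a negative r, from 0.98 for Plek, the platelet protein pleckstrin, to −0.87 for Thbs1, with a median of 0.11. With 6 libraries, these ranks only describe likeness of pattern.

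Among other platelet genes more were higher than lower in knockout nerve, and none passed in the fits made here. The 15 surface receptors and 14 genes of granules, cytoskeleton and signalling made 29 listed genes, of which 28 passed the filter on low counts. In knockout nerve 18 of these 28 had higher and 10 had lower fitted levels, where 48.9% of all genes tested were higher. Their median log2 fold change was 0.35, against −0.01 over all genes tested. None passed correction in the edgeR and DESeq2 fits made here. Alox12 came nearest, at 5.76, 6.63 and 6.97 CPM in wildtype and 11.1, 9.18 and 10.9 CPM in knockout nerve. Its log2 fold change was 0.68 (SE 0.18; edgeR adjusted p = 0.554, DESeq2 adjusted p = 0.0514). In the authors' deposited table Alox12 has an adjusted p of 0.0493, under the threshold. At an unadjusted p under 0.05 in edgeR 6 of the 28 were higher and 1 lower, beside 2.56% of all genes higher and 5.2% in either direction. All knockout libraries lay above all wildtype libraries for 8 of them, beside 5.42% of all genes. Without knockout replicate 1 the median was 0.14, and 2 were higher at an unadjusted p under 0.05 in edgeR. In that fit 1755 of the 16941 genes tested reached this level in either direction. Without wildtype replicate 3 the median was 0.32 and 7 were higher at that level, beside 1226 of 16957 genes in either direction. For the fits without a library, all genes were counted in either direction only, so these counts are not like for like.

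Several transcripts known from megakaryocytes and platelets were at low levels in wildtype and higher in every knockout library. Treml1, a receptor of the alpha granule membrane, was at 0.288, 0.267 and 0.023 CPM in wildtype and at 1.58, 0.487 and 1.03 CPM in knockout nerve. Its log2 fold change was 2.41 (SE 0.86; edgeR adjusted p = 0.827). Tubb1, the platelet beta tubulin, was at 0.552, 0.256 and 0.760 CPM in wildtype and at 5.02, 0.953 and 1.31 CPM in knockout nerve. Knockout replicate 1 stood apart. The log2 fold change of Tubb1 was 2.21 (SE 0.75; edgeR adjusted p = 0.783), and 1.11 without that library. Gp5, which joins Gp9 and Gp1bb in the receptor complex, was at 0.432, 0.167 and 0.316 CPM in wildtype and at 2.19, 0.682 and 0.951 CPM in knockout nerve (log2 fold change 2.06, SE 0.60; edgeR adjusted p = 0.618). Without knockout replicate 1 the value for Gp5 was 1.42. Treml1, Tubb1, Gp5 and the genes Gp1ba and Gp6 below were chosen after their values were seen.

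Gp1ba, the subunit of the same complex that binds von Willebrand factor, had groups that overlapped. It was at 2.11, 1.55 and 2.32 CPM in wildtype and at 3.23, 1.55 and 2.99 CPM in knockout nerve (log2 fold change 0.38, SE 0.36; edgeR adjusted p = 1.00). Itga2b was at 14.3, 14.4 and 12.04 CPM in wildtype and at 21.7, 16.4 and 18.0 CPM in knockout nerve, with no overlap and a log2 fold change of 0.46 (SE 0.17; edgeR adjusted p = 0.856). Its partner Itgb3 had a log2 fold change of 1.10 (SE 0.50), with knockout replicate 1 at 17.8 CPM and the 5 other libraries at 4.03 to 5.63. Gp6, the platelet collagen receptor, did not pass the filter, with 0 counts in the wildtype libraries and 36, 0 and 7 in the knockout libraries.

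Among the platelet genes of highest level, which other cells of the nerve also make, the values were mixed. Thbs1, the thrombospondin gene, averaged 50.7 ± 22.1 CPM over the wildtype and 29.8 ± 8.24 CPM over the knockout libraries (SD, n = 3), and Vwf, made by endothelium too, 35.3 ± 6.42 and 33.0 ± 11.2 CPM. Srgn, the proteoglycan of secretory granules, averaged 107 ± 40.4 and 93.1 ± 32.3 CPM. Rasgrp2, an exchange factor for Rap, was at 26.7, 32.9 and 19.8 CPM in wildtype against 23.5, 33.3 and 43.1 in knockout nerve. The purine receptors P2ry1 (29.3 ± 2.55 and 21.9 ± 2.92 CPM) and P2ry12 (9.34 ± 3.50 and 6.34 ± 1.06 CPM), both also made by cells of nervous tissue, had negative log2 fold changes of −0.42 and −0.56.

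**Figure D3:**
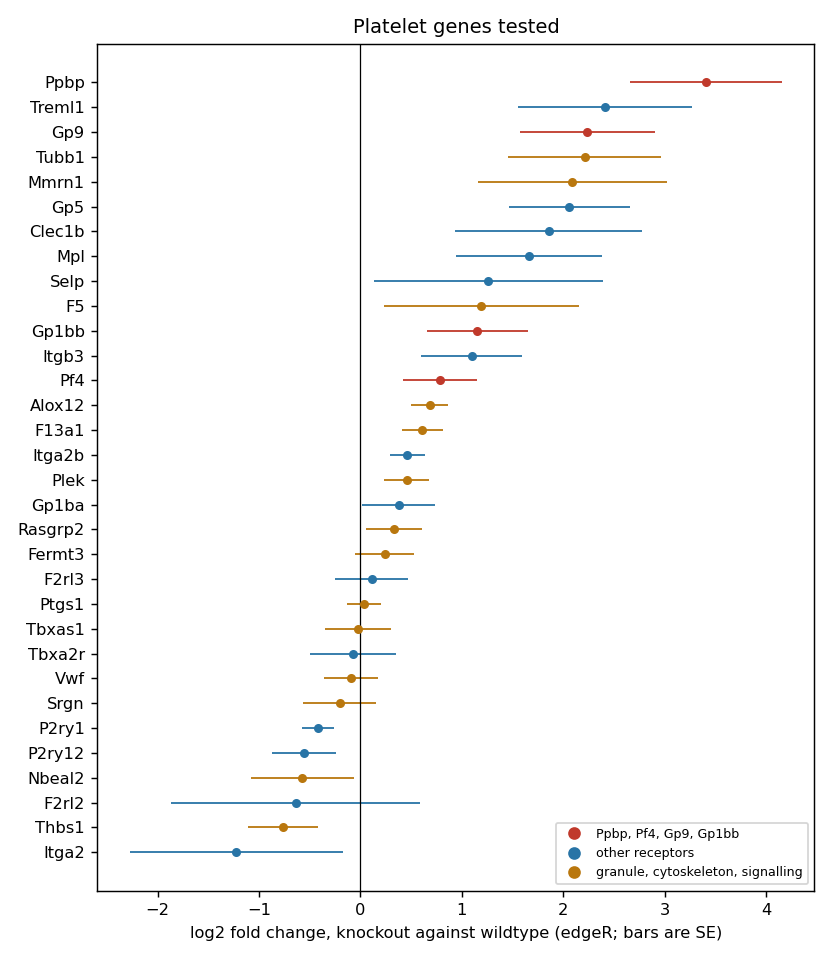
Log2 fold change of knockout against wildtype with its SE (edgeR, 3 libraries a group) for the 4 platelet genes of the rule and the 28 other platelet genes tested, in order of size. Ppbp, at 3.41, stands at the top, Treml1, Gp9, Tubb1, Mmrn1 and Gp5 follow at 2.06 to 2.41, and 10 genes lie below 0.

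Marker genes of other blood, marrow and vessel cells were also measured, and the summed levels of some lists differed between the genotypes. The summed level of 13 neutrophil genes was 23.6 to 72.5 CPM in wildtype and 89.2 to 188 CPM in knockout nerve, 11 of the 13 were higher, and none was at 0 in all libraries. Knockout replicate 1 did not share that pattern. Its sum of 131 CPM was nearly all Ltf, the lactoferrin gene (121 CPM), and 11 of the 13 genes, S100a8 among them (0.619 CPM), were lower there than in every wildtype library. Without Ltf, a choice made after seeing the data, the sums were 10.4, 125 and 80.0 CPM in the knockout libraries against 21.2 to 60.0 CPM in wildtype, and the groups overlapped. The 8 endothelial genes summed to 294 to 325 CPM in wildtype and 372 to 452 CPM in knockout nerve, with 5 genes higher and 3 lower and a median log2 fold change of 0.09. The largest part of that sum was Emcn (78.9 to 114 and 131 to 214 CPM). Cldn5 (28.4 to 49.1 and 42.5 to 90.6 CPM) and Emcn had the highest log2 fold changes of the list, 0.94 and 0.68. The 3 lower genes were Pecam1 (−0.22), Cdh5 (−0.12) and Flt1 (−0.18), so the sum does not describe the list as a whole. The sums of the 10 macrophage genes were 226 to 231 CPM in wildtype and 156 to 196 CPM in knockout nerve. Those of the 11 B cell genes were 94.4 to 113 and 109 to 114 CPM, mostly Ebf1 (87.5 to 108 and 104 to 106 CPM). Those of the 6 osteoclast genes were 18.1 to 29.2 and 23.4 to 29.8 CPM, mostly Ctsk (15.7 to 24.9 and 20.2 to 20.4 CPM). The B cell and osteoclast sums thus mainly follow 1 gene each. Those of the 6 osteoblast and osteocyte genes were 209 to 354 and 290 to 339 CPM. In the osteoclast list 1 gene was called by DESeq2, Dcstamp, needed for the fusion of osteoclast precursors (0.011 to 0.129 and 0.348 to 0.659 CPM; DESeq2 adjusted p = 0.0357, edgeR adjusted p = 0.509). The part of these cells in the platelet result was not tested.

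Among red cell genes, hemoglobin transcripts were almost uncounted. Hba-a1 had 1 count in wildtype replicate 1 and 0 in the other 5 libraries, and Hba-a2 had 0 in all 6. A count of 0 allows up to 3 counts of a library, or 0.0324 to 0.0403 CPM, for counting error only, so no fold change is given. The adult beta globin genes of the table, Hbb-bs, Hbb-bt, Hbb-b1 and Hbb-b2, and the embryonic genes Hba-x and Hbb-bh1 were also at 0 in all libraries. Hbb-b1 (38285 to 39684) and Hbb-b2 (53494 to 54867) are listed under chromosome 7, as are Hbb-bs (103826523 to 103827928) and Hbb-bt. Whether these positions count along the same sequence was not checked, so no distance between the pairs is read from them. Whether Hbb-b1 and Hbb-b2 could be counted in these C57BL/6 mice was not tested. Of the other globins, Hbb-y, an embryonic beta-like gene, had 9, 12 and 11 counts in wildtype and 1, 5 and 4 in knockout nerve. The theta globin genes had 0 to 6 counts a library (Hbq1a) and 3 to 15 (Hbq1b).

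The 2 alpha globin genes lie 12006 bases apart on chromosome 11 (Hba-a1 at 32283672 to 32284486, Hba-a2 at 32296492 to 32297310), and their sequences are nearly the same beyond the transcripts too. The 250 bases before their starts (RefSeq, GRCm38.p6, plus strand, chr11:32283422-32283671 and chr11:32296242-32296491) share an unbroken run of 247 bases. They are shown for this likeness of the pair. These bases lie outside the transcripts, and it is the likeness of the transcripts, given below, that bears on how reads are counted. Capitals mark the GATA match, which lies at −183 to −178 in Hba-a1 and −186 to −181 in Hba-a2.
Hba-a1: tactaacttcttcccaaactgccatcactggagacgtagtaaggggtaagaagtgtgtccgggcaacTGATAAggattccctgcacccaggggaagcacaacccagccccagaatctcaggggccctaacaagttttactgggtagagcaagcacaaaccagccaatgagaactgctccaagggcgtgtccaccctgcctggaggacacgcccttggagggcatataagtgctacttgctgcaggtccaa
Hba-a2: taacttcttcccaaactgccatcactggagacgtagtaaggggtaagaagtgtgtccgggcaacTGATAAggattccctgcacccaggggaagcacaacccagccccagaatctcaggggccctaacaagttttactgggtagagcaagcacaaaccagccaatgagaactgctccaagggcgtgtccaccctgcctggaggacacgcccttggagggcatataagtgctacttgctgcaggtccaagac
The window before Alas2, on chromosome X, held a GATA match at −86 to −81 and an ETS match at −147 to −142. Of the 50-base stretches in the longest transcript, 67.5% of those of Hba-a1 also occur in Hba-a2, and 86.9% of those of Hba-a2 occur in Hba-a1. For Hbb-bs and Hbb-bt the shares were 65.8% and 58.3%. How reads matching more than 1 gene were counted is not given in the sources used here. In this table, 396 of 571 genes (69.4%) with at least 95% of their stretches shared with another gene had at most 3 counts over all libraries, against 14.7% of the 18581 genes with under 5% shared. The globin genes named here, at 58.3% to 86.9%, fall in neither class, so these shares do not describe them. Whether globin RNA was removed from these libraries is not given either, and the cause of the zeros was not tested. The hemoglobin genes give no measure of red cells in these data.

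Alas2 and Slc4a1, which share no stretch with another gene, were counted in every library and neither passed between the genotypes. Alas2 was at 6.996, 5.83 and 23.5 CPM in wildtype and at 4.38, 5.66 and 3.34 CPM in knockout nerve. Wildtype replicate 3 stood apart, and the other wildtype libraries lay close to the knockout libraries, so that the groups only just did not overlap (4.93% of all genes had every knockout library below every wildtype library). The log2 fold change of Alas2 was −1.44 (SE 0.57; edgeR unadjusted p = 0.0398, adjusted p = 0.881; DESeq2 adjusted p = 0.238). Without wildtype replicate 3 it was −0.53. That library also had the lowest Snap25, as given above, and the part of this in the Alas2 result was not tested. The authors' deposited table has an adjusted p of 0.247 for Alas2.

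Slc4a1 was at 4.39, 1.67 and 12.2 CPM in wildtype and at 9.54, 3.26 and 3.42 CPM in knockout nerve. The groups overlapped, with 1 high library in each. For Slc4a1 the log2 fold change was −0.17 (SE 0.76; edgeR adjusted p = 1.00), and it turned to 0.83 without wildtype replicate 3. Knockout replicate 1, high in Slc4a1, was not high in Alas2. Per kilobase of transcript, Alas2 was at 5.94 and Slc4a1 at 1.34 CPM in wildtype nerve, and they were at 2.19 and 1.19 in knockout nerve.

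No other red cell gene was called between the genotypes. Of 46 listed genes 37 were tested, and 22 were higher and 15 lower. Their median log2 fold change was 0.06, and none passed in edgeR or DESeq2. At an unadjusted p under 0.05 in edgeR there were 2 of the 37, near the 5.2% of all genes, both higher: Uros, a heme synthesis enzyme made in all tissues (28.7 to 31.4 CPM in the wildtype and 34.9 to 50.8 CPM in the knockout libraries), and Lmo2, a partner of erythroid and endothelial transcription factors (15.02 ± 3.05 and 21.03 ± 2.93 CPM). Without wildtype replicate 3 the median was 0.27, and without knockout replicate 1 it was −0.11.

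Hemgn, a nuclear protein of blood precursors, was at 0.240, 0.345 and 1.06 CPM in the wildtype libraries and at 1.95, 0.401 and 0.313 CPM in the knockout libraries, highest in wildtype replicate 3 and knockout replicate 1. The erythroid regulators Klf1 (0.464 ± 0.145 and 0.608 ± 0.168 CPM) and Gata1 (0.224 ± 0.195 and 0.360 ± 0.185 CPM, SD, n = 3) overlapped between the groups. Hemgn, Klf1 and Gata1 were chosen after their values were seen.

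Of the red cell genes of highest level, the transferrin receptor Tfrc averaged 659 ± 71.9 CPM over the wildtype and 520 ± 62.7 CPM over the knockout libraries (SD, n = 3). Its log2 fold change was −0.34 (SE 0.17), with an adjusted p of 1.00 in edgeR, although every knockout library lay below every wildtype library. The membrane skeleton genes Ank1 (243 ± 88.7 and 268 ± 97.0 CPM) and Sptb (146 ± 44.4 and 177 ± 107 CPM, SD, n = 3) are also made by neurons. Zfpm1, a cofactor of GATA factors, was at 14.6 ± 4.98 and 13.7 ± 1.65 CPM.

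**Figure D4:**
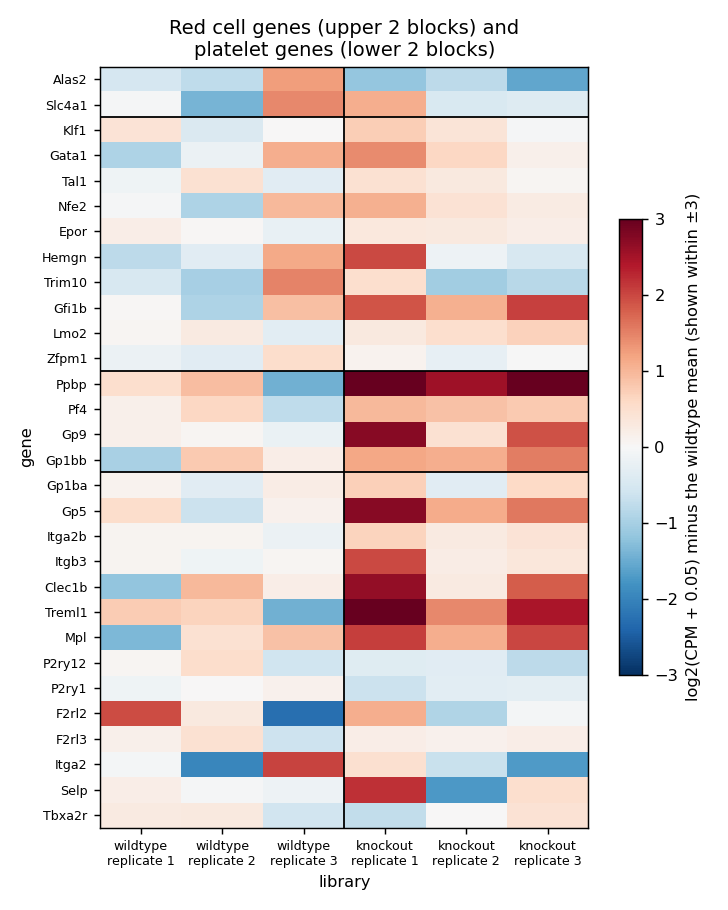
Log2(CPM + 0.05) minus the wildtype mean, by colour, for 30 tested genes in the 6 libraries: from top to bottom Alas2 and Slc4a1, erythroid regulators, the 4 platelet genes of the rule and other platelet receptors. Slc4a1, Hemgn and Gata1 are red in wildtype replicate 3 and knockout replicate 1, and Ppbp is red in all 3 knockout libraries. Colours stop at 3 in either direction.

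The levels of Ppbp ran opposite to those of Alas2 across the libraries. Ppbp had an r of −0.16 with Slc4a1 (exact permutation p = 0.739, adjusted 0.739; rho −0.20, p = 0.714) and of −0.90 with Alas2 over the 6 libraries (exact permutation p = 0.00694, adjusted 0.0139; rho −0.94, p = 0.0167). Without the 2 libraries named above r was −0.89 with Alas2 and 0.17 with Slc4a1, over 4 libraries. These values again join both genotypes. Every knockout library was higher for Ppbp and lower for Alas2, so the difference between the genotypes enters the r with Alas2 and its p. Once each genotype's mean was subtracted, the deviations of Ppbp correlated at −0.88 with those of Alas2 and −0.42 with those of Slc4a1. Genes most like Alas2 over the 6 libraries were Sh3bp2, Shpk, Loxl2, Snx2 and Gramd2 (r from 0.995 to 0.988). Alas2 was compared in place of Hba-a1, which had too few counts, after the values were seen.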

How the data were processed

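Per the submitters' processing notes, the tools were HTSeq and DESeq2 and the build mm10. Their versions, the aligner, the strand setting and the handling of reads that match several genes were not given in the sources used. For each library the authors deposited whole-number gene counts, not normalized. Beside these stand the results of the authors' comparison, whose columns the file headers name: a mean of normalized counts over the samples (a signal), the log2 fold change and its error, a test statistic (a score by the authors) and p-values. Only the authors' adjusted p-value is printed, where their table is named.

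Of 24067 rows, 5 repeated a symbol with identical counts and were dropped. Counts were tested in R 4.3.3 with edgeR 4.0.16 (filterByExpr, 16722 genes; TMM factors 0.964 to 1.02; robust quasi-likelihood F test, 2-sided; Benjamini-Hochberg adjustment, threshold 0.05), with no covariate. The SE is the log2 fold change divided by the square root of F. DESeq2 1.42.0 and the other alternatives are in the closing section. The scripts were tested on simulated counts. Log2 CPM for ratios and correlations used a prior count of 0.5. Depth was 74530860 to 92513887 counts, and p-values measure the spread between 3 mice a group.

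The members and lists were chosen with earlier results of these data known. Named were the 8 members with a row, of each other list the genes that passed and up to 4 of the highest mean, not all of which are described, and the 5 genes most alike to Ppbp, Pf4 and Alas2 (no predicted genes, pseudogenes or antigen receptor segments). Alas2, and the other genes named among the lists, were chosen after their values were seen. Sharing of 50-base stretches was measured in GENCODE vM21 transcripts, and positions are from RefSeq for GRCm38.p6, the assembly behind mm10. Some genes of the lists are not reported by name here.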

Additional observations from a re-analysis of the deposited data

How the results depend on the processing

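With edgeR, no gene of the rule, no other red cell gene and no other platelet gene was called under 11 alternatives (other scaling, other filters, each library left out, a replicate block). DESeq2 called 1 gene of the rule, Ppbp, and none of the others. The log2 fold change of Ppbp was 2.88 to 3.89 over the 12 alternatives, with an edgeR adjusted p of 0.310 to 0.882. Leaving out each library in turn gave −0.86 to 0.83 for Slc4a1, whose sign also turned with the replicate block (0.14), and 0.087 and 0.067 without knockout replicates 2 and 3. Ppbp relative to Pf4, Gp9 and Gp1bb kept its direction, at 2.28 to 3.15, 1.01 to 2.12 and 1.36 to 3.04 over 9 alternatives each. The correlations of Ppbp moved by little with the prior count or with library totals only (0.911 to 0.914 with Pf4). Over all genes edgeR called 23, and 15 where every library had at least 10 counts, 3 with the replicate block and 3 to 14 without a library, while DESeq2 called 252. The replicate numbers did not pair the samples: same-numbered libraries deviated together at r = 0.41, 0.19 and −0.15, and of the wildtype libraries only replicate 1 correlated best with its own number. The knockout libraries also carry other numbers in their descriptions than in their titles. Hba-a2 had no counts to fit, Hba-a1 entered DESeq2 and the fit without a filter with its 1 count and was called by neither, and Treml1 had none under the stricter filter. At these levels (12 to 16 counts for Gp9 in a wildtype library), a small difference was not detectable.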

Other observations

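The chemokine genes beside Ppbp and Pf4 were at low levels, and none passed in edgeR or DESeq2. Of the 8 genes listed for the chromosome 5 cluster and the CXC receptors, 4 passed the filter on low counts, 3 higher and 1 lower in knockout nerve (median log2 fold change 0.42). Cxcl5, which lies next to Ppbp and encodes a neutrophil attractant, was at 0.336, 0.979 and 0.152 CPM in wildtype and at 0.633, 1.87 and 0.429 CPM in knockout nerve (log2 fold change 1.00, SE 0.83; edgeR adjusted p = 1.00). Cxcl2 had 3, 2 and 1 counts in wildtype and 4, 93 and 11 in knockout nerve, and Cxcl3 had 18 counts in knockout replicate 2 and 0 elsewhere. Knockout replicate 2 was also the highest library for Cxcr2, the receptor through which neutrophils sense these chemokines, at 0.975 CPM against 0.053 to 0.398 CPM in the other libraries. Ppbp was lower in that library than in the other knockout libraries.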
